A study of Macaca mulatta with 64 samples.

Results

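CA11 and CA8, a pair of carbonic anhydrase relatives that cannot catalyse the reaction of the family, were followed over all transcript clusters (TCs) listed for them in the CAGE-seq table of rhesus macaque brain. A TC is a group of neighbouring 5′ ends of tags, given in the table as 1 start position. CA11 (ENSMMUG00000022161) had 89 TCs and CA8 (ENSMMUG00000006437) had 7, which made 96 of the 160389 TCs of 13269 genes. The TCs of both genes were taken by gene ID.

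The 64 libraries came from CB (cerebellar cortex), CA1 and DG (dentate gyrus) of the hippocampus, and PFC (prefrontal), PCC (posterior cingulate), temporal, PC (parietal) and OC (occipital) cortex of healthy macaques of 1, 4, 10 and 20 yr. The labels give 16 untreated animals, 4 per age with 2 of each sex, and each of the 8 regions had 1 library for each age and sex. Each combination of age and sex is called an animal group here, and the methods of the study state that all regions were taken from every animal. Libraries of the same region, age and sex were not repeated. In the fits between sets of regions, p-values rest on the spread of libraries left after region and animal group were fitted. Those for ages and sexes rest on the spread between animal groups, and the exact tests on paired differences over animal groups. The values are tags scaled to the library's total (TPM) with no correction for gene length, which CAGE does not need because each RNA is counted at its 5′ end. A library held 644 to 23670 TCs of 545 to 8143 genes, and its smallest listed value stood for an estimated 2 to 7 tags. Tag numbers here are estimates from the spacing of the low values of each library, since the table holds no counts. CA1 libraries held 7001 to 23670 TCs against 1696 to 7596 in DG. In bulk tissue, fewer cells of a type and less RNA per cell cannot be told apart, which holds for each difference between regions below.

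Most carbonic anhydrases use a zinc ion held by histidines to turn carbon dioxide into bicarbonate and a proton. CA8, CA10 and CA11 lack part of that zinc site and are known as carbonic anhydrase related proteins. CA8 is a cytosolic protein abundant in cerebellar Purkinje cells, where it binds the inositol trisphosphate receptor ITPR1, and loss of CA8 causes ataxia in mice and humans. CA10 and CA11 are secreted glycoproteins of neurons, and CA10 is known as a ligand of neurexins, the presynaptic adhesion proteins.

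CA11 was among the most abundant genes of the table, whereas CA8 was listed in few libraries. CA11 had a TC in 64 of 64 libraries, with a mean of 6480 ± 4557 TPM (SD, n = 64), a lowest value of 6.39, a median of 4995 and a highest value of 18644 TPM. It ranked 8 of 13269 genes by mean level and carried 1.15% of all listed TPM. CA8 had a TC in 8 of 64 libraries and averaged 10.995 ± 44.6 TPM (SD, n = 64), with a highest value of 260.6 TPM. In the 8 libraries with both genes, the ratio of CA11 to CA8 had a median of 289 and ranged between 0.69 and 726. CA8 was the higher of the pair in 1 library, that of CB of 4-yr-old females. Its CA11 level, 158 TPM, was 1 of the 5 below 500 TPM that are described below. That ratio is a description, since the pair of genes was not compared by a test.

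CA11 lies at chr19:54943155-54951687 on the minus strand of MMUL 1.0, a span of 8533 nt. Its tags began upstream of the annotated start: 15 positions lying 400 to 600 nt upstream held 98.5% of the CA11 TPM, and each of the 64 libraries had at least 1 of them. The position 512 nt upstream, 54952199, was listed in 48 libraries with 1871 to 18305 TPM and a median of 4934 TPM. In the other libraries with at least 500 TPM the main position lay 489 to 576 nt upstream, and each of these other positions was found in 1 to 3 libraries. TCs were called in each library separately, and whether positions that differ between libraries reflect this was not tested. After joining positions less than 20 nt apart, the 89 positions made 42 groups, and 1 of these, 512 to 535 nt upstream, was listed in 55 libraries.

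Inside the gene, starts were weak and scattered. The first 500 nt held 14 positions and 0.383% of CA11 TPM, and the stretch beyond them up to 2000 nt held 19 positions and 0.261%. Between 2000 and 4000 nt there were 11 positions with 0.165%, and between 4000 and 6000 nt there were none. The last part of the gene, beyond 6000 nt, held 29 positions and 0.721% of the TPM in 35 libraries. The most frequent inner position, 55 nt inside, was listed in 17 libraries with a median of 17.6 TPM. It was followed by one at 6392 nt in 16 libraries with a median of 11.2 TPM. Of the 89 positions, 49 were seen in 1 library and 40 (44.9%) in more than 1. The files used here give no exons for CA11, so these positions were not assigned to exons or introns.

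**Figure D1:**
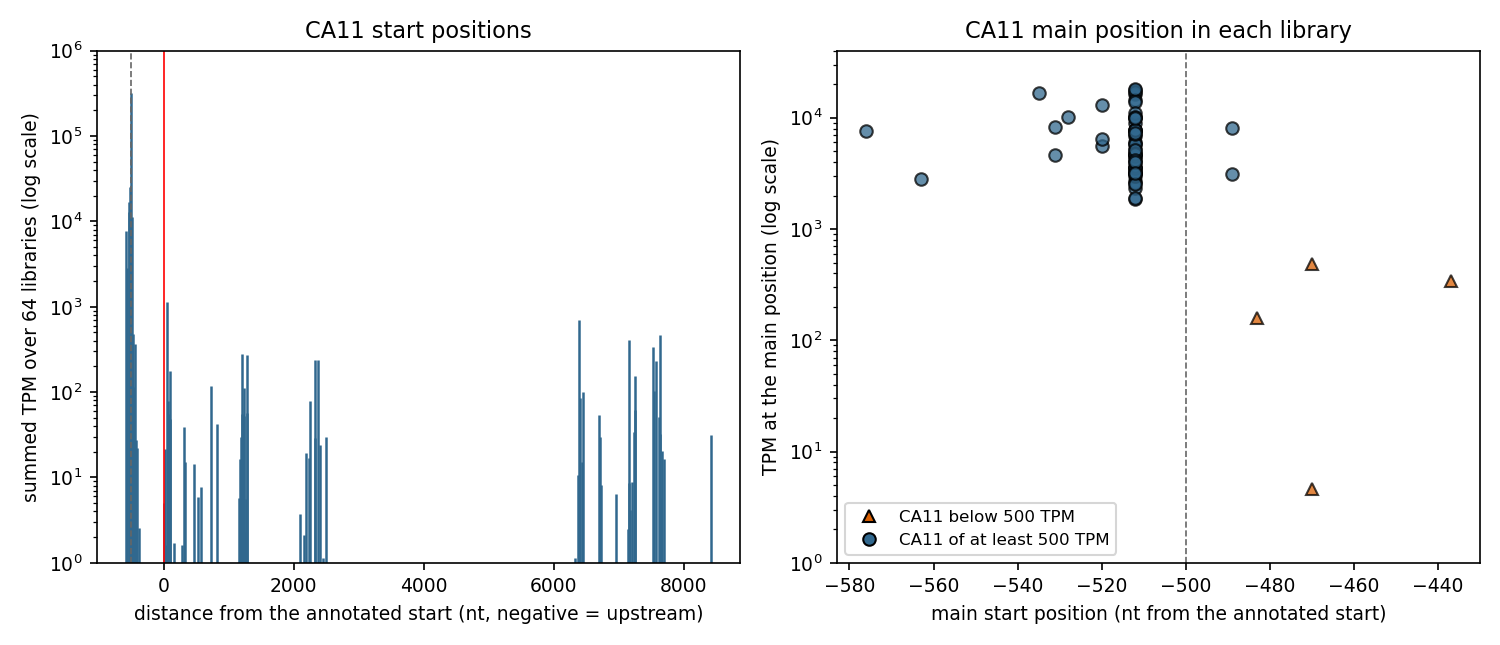
Start positions of CA11. Left, TPM summed over 64 libraries (log scale) against the distance from the annotated start (red line); the main peak stands 512 nt upstream and inner positions stay below 1125 TPM. Right, main position of each library against its TPM (log scale); 59 libraries lie 489 nt or more upstream at 1871 TPM or more, and the libraries below 500 TPM lie at 437 to 483 nt (the dashed lines mark 500 nt upstream, and the DG library of 1-yr-old males, whose main position is inside the gene, is left out).

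A set of 5 libraries stood apart and bears on every CA11 result below. The PCC library of 20-yr-old females had 480.8 TPM, the temporal cortex library of 10-yr-old females had 6.39 TPM, and the DG library of 1-yr-old males had 265.0 TPM. Among CB libraries, that of 4-yr-old females had 158.0 TPM and that of 10-yr-old females had 382.0 TPM. The other 59 libraries had at least 2041 TPM, so no library lay between 481 and 2041 TPM. The upstream positions of these 5 libraries were 418 to 483 nt from the annotated start, nearer to it than the 489 to 576 nt of the main position in the others. In the table as a whole, 49 of 160389 TCs (0.0306%) from 26 genes lay more than 500 nt upstream of an annotated start, of which 7 were of CA11. TCs that the authors assigned to no gene were not analysed here, and whether the 5 libraries held CA11 tags in such TCs was not tested. These 5 libraries held 644 to 3803 TCs with a median of 985, against 744 to 23670 with a median of 4187 in the other 59. Across libraries, log2 CA11 and the log2 number of TCs had a Pearson correlation of 0.33 over 64 libraries and of -0.03 over the 59, given as a description. With regional means taken out, the correlation was 0.49 over the 64 and 0.16 over the 59.

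By region, CA11 in CB averaged 6782 ± 4237 TPM (SD, n = 8), with a lowest value of 158, a median of 7696 and a highest value of 10988 TPM. The highest regional mean was that of PFC, 14237 ± 3552 TPM (lowest 7880, median 15502, highest 17840), followed by PCC with 9140 ± 5691 TPM (lowest 481, median 9412, highest 18644). These cingulate libraries thus held both the highest CA11 value of the series and 1 of the 5 low values. Temporal cortex averaged 5829 ± 2754 TPM with a median of 6638, and CA1 averaged 5481 ± 1336 TPM with a median of 4989. OC averaged 4009 ± 984 TPM, DG 3202 ± 1390 TPM and PC 3157 ± 1104 TPM (SD, n = 8 for each region). Every PFC library lay above every library of PC (2041 to 4835 TPM), OC (3004 to 5818 TPM) and DG (265 to 4837 TPM). Of 6106 tested genes, 0.0983% had groups that did not overlap between PFC and PC, 0.278% between PFC and OC and 0.147% between PFC and DG. A gene at 0 in some library of both regions cannot be counted in these shares. PFC overlapped PCC, temporal cortex, CA1 and CB.

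**Figure D2:**
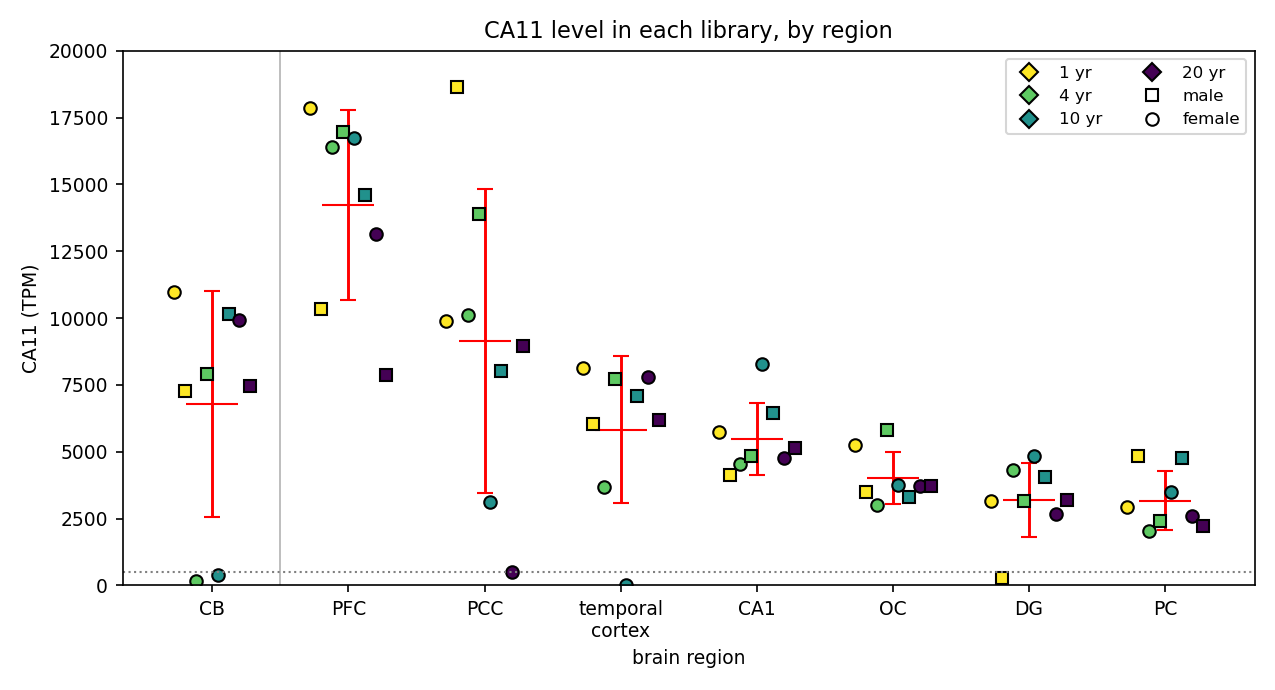
CA11 TPM in each of the 64 libraries, by region, with colour for age, shape for sex, and the mean with its SD in red (n = 8 per region). PFC libraries lie between 7880 and 17840 TPM, and 5 libraries of CB, PCC, temporal cortex and DG fall at or below the dotted line at 500 TPM.

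No pair of neighbours in this order passed a test, and the design could hardly show one. Over the 8 animal groups, exact two-sided sign-flip tests on log2(TPM + 1), adjusted over 14 pairs of neighbouring regions of both genes, gave a smallest adjusted p of 0.438, for CA1 above OC by 0.45 ± 0.45 (SD of 8 paired differences, higher in 7 of 8). With 8 animal groups the smallest exact p is 0.00781, so that 1 pair on its own cannot go below an adjusted p of 0.109. PFC exceeded PCC by 1.11 ± 1.76 on the log2 scale, in 6 of 8 animal groups, with an adjusted p of 0.602 in the same exact test. The order of the means, PFC, PCC, CB, temporal cortex, CA1, OC, DG and PC, was the same without the 5 low libraries. CB then averaged 8952 ± 1585 TPM (SD, n = 6) and temporal cortex 6661 ± 1547 TPM (SD, n = 7), and CB was the higher in 6 of 6 animal groups, by 0.31 ± 0.17 on the log2 scale. The exact adjusted p over these 7 pairs was 0.109 there and for CA1 against OC, the smallest of the set. For CB against temporal cortex the unadjusted exact p, 0.0313, was the smallest that 6 pairs allow.

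Across broader regions, CA11 passed no test. In limma's moderated test on log2(TPM + 1), CB minus the other 7 regions was -0.33 ± 0.64 (SE, 95% interval -1.62 to 0.96, adjusted p = 0.828). The CB libraries averaged 6782 ± 4237 TPM (SD, n = 8) and the others 6436 ± 4635 TPM (SD, n = 56), so the means and the log2 estimate point opposite ways. Without the 5 low libraries, the limma estimate was 0.61 with an adjusted p of 0.523. At the same threshold, an adjusted p under 0.05, 2.23% of 6106 genes differed between CB and the others, and their median difference was -0.43. Hippocampus minus neocortex was -0.41 ± 0.50 for CA11 (SE, 95% interval -1.42 to 0.60, adjusted p = 0.688 by limma), from 4341 ± 1766 TPM in hippocampus (SD, n = 16) and 7274 ± 5156 TPM in neocortex (SD, n = 40). In that comparison 8.19% of genes were called, with a median difference of 0.55. CA1 minus DG was 1.06 ± 0.85 (SE, 95% interval -0.65 to 2.77, adjusted p = 0.382 by limma), where 19.4% of genes were called and the median difference was 1.37, above that of CA11. Without the animal group of 1-yr-old males, which holds the DG library of 265 TPM, CA1 minus DG was 0.65, and without the 5 low libraries it was 0.58. Leaving out 1 animal group at a time moved hippocampus minus neocortex to between -0.78 (the 10-yr-old females left out) and -0.07 (the 1-yr-old males left out).

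Single CA11 positions gave no called difference either. Of the TCs that reached 1 TPM in 8 or more libraries, 5 belonged to CA11, at 512 nt upstream and at 55, 1204, 6392 and 7162 nt inside. Their CB minus other regions differences lay between -1.12 and 1.27 on the log2 scale, with adjusted p of at least 0.661 by limma, and 0.653% of 5669 tested TCs were called. The position at 512 nt gave 0.57, but it was listed in 48 libraries and counted as absent elsewhere. The PFC library of 10-yr-old females, with 16746 TPM at 535 nt, was thus counted as lacking it. After joining, the group at 512 to 535 nt, listed in 55 libraries, gave -1.06 (adjusted p = 0.772 by limma), the opposite sign. The test of the single position thus mixes level with the naming of the position, and cannot decide whether the level differed. The position at 7162 nt averaged 30.1 ± 55.9 TPM in CB (SD, listed in 2 of 8 libraries) and 3.02 ± 11.6 TPM elsewhere (SD, listed in 6 of 56). The use of the 5 positions within CA11 did not pass limma's diffSplice test (adjusted p = 0.908), in which 0.87% of 1265 genes were called. That test takes the position at 512 nt in the same way, and with positions joined its adjusted p was 0.738.

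By age, mean CA11 levels were 7432 ± 5127 TPM for animals of 1 yr, 6681 ± 5154 TPM for 4 yr, 6189 ± 4603 TPM for 10 yr and 5616 ± 3360 TPM for 20 yr (SD, n = 16 libraries each). On animal-group means, 10 and 20 yr minus 1 and 4 yr was -0.37 ± 0.51 on the log2 scale (SE, 95% interval -1.52 to 0.79, adjusted p = 0.867 by limma), and -0.08 without the 5 low libraries. The difference of 20 yr minus 1 yr was -0.29 ± 0.73 (SE, adjusted p = 0.958 by limma). Libraries of males averaged 6903 ± 4255 TPM and those of females 6056 ± 4871 TPM (SD, n = 32 each), a log2 difference of 0.67 ± 0.51 (SE, adjusted p = 0.960 by limma). Of the 5 low libraries, 1 was from males and 4 from females, and without them the sex difference was 0.04. In the age and sex comparisons 0% of 6106 genes were called by limma, and 549, 466 and 321 genes had an unadjusted p under 0.05 for older against younger, 20 yr against 1 yr and males against females.

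PCC was the region in which CA11 separated the ages. There the 10-yr-old libraries had 8036 TPM (male) and 3128 TPM (female), and the 20-yr-old libraries had 8935 TPM (male) and 481 TPM (female). The 1-yr-old libraries had 18644 TPM (male) and 9888 TPM (female), and the 4-yr-old libraries had 13879 TPM (male) and 10128 TPM (female). Every older PCC library was thus below every younger one, with means of 5145 ± 4023 against 13135 ± 4102 TPM (SD, n = 4 each). The main CA11 position of the younger PCC libraries lay 512 or 528 nt upstream. At 10 yr it lay 489 nt upstream in males and females, and at 20 yr 470 nt in females and 512 nt in males. The 10-yr-old libraries listed 744 (female) and 1537 (male) TCs, and the 20-yr-old ones 912 (female) and 2027 (male). Younger PCC libraries listed 1281 to 3410 TCs. Whether the age difference follows the position or the number of TCs was not tested. Groups that did not overlap between these ages in PCC were found for 0.688% of tested genes. PCC libraries listed 617 to 2158 genes, and a gene at 0 in some library of both age groups cannot be counted there. The share is thus not the rate for a gene listed in every PCC library, as CA11 was. The log2 difference was -1.98 ± 0.75 (SE, 95% interval -3.86 to -0.09), with an unadjusted p of 0.0431 and an adjusted p of 0.857 by limma, where 0.0491% of genes were called. Leaving out 1 animal group at a time gave -2.31 to -1.23, with adjusted p of 0.972 or more by limma. Without the animal group that holds the PCC library of 481 TPM, the difference was -1.23 ± 0.21 (SE). The unadjusted p by limma was then 0.00363, the smallest of the 8 fits, and the largest was 0.111, without the 4-yr-old females. In the other 7 regions the older minus younger difference of CA11 lay between -2.27 in temporal cortex and 0.97 in DG, with adjusted p of 0.7003 or more by limma and at most 0.393% of genes called. Both of those regions hold 1 of the 5 low libraries. The difference of the age effect between regions was not tested.

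**Figure D3:**
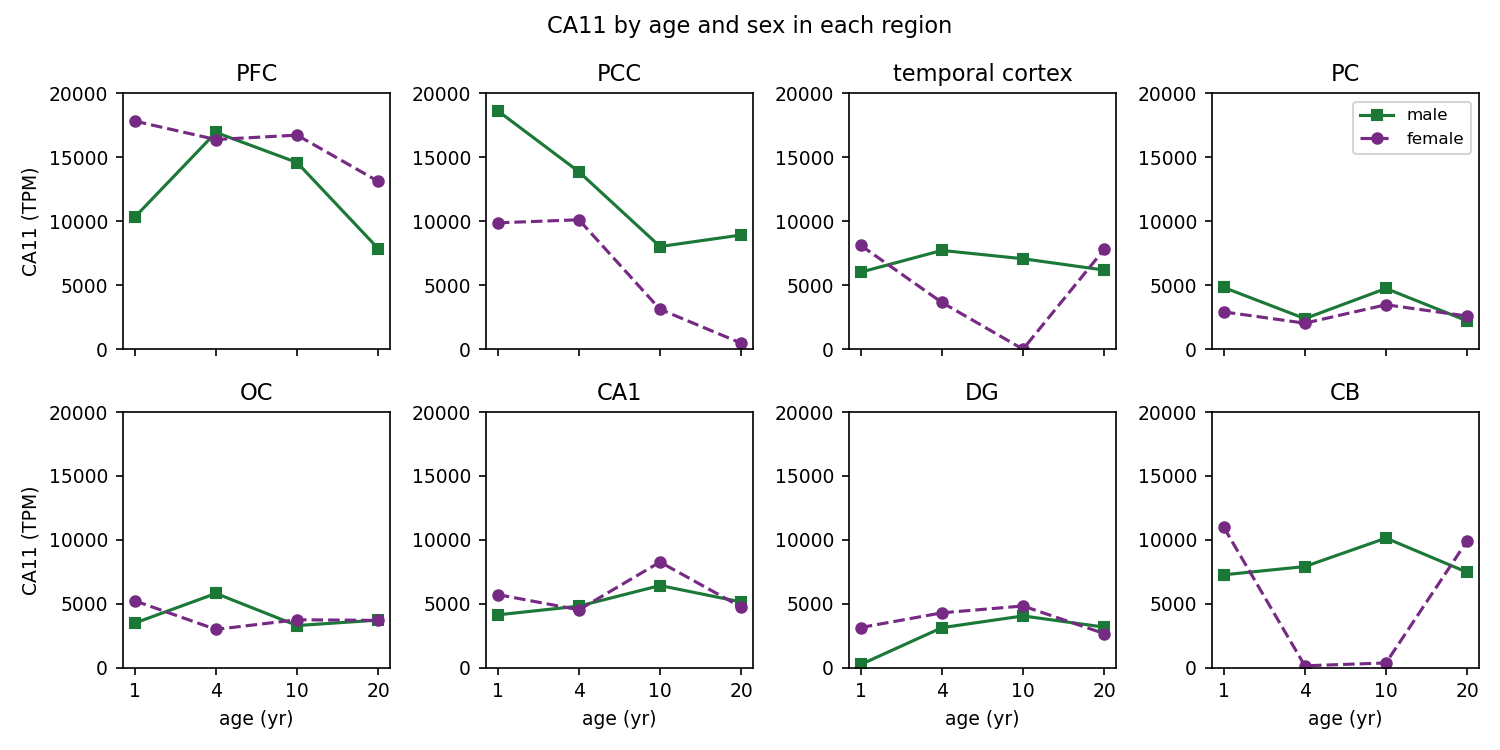
CA11 TPM at 1, 4, 10 and 20 yr in each of the 8 regions, with males as squares on solid lines and females as circles on dashed lines, 1 library per point. In PCC the libraries of 10 and 20 yr lie between 481 and 8935 TPM and those of 1 and 4 yr between 9888 and 18644 TPM.

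CA8 lies at chr8:62770729-62865168 on the minus strand, a span of 94440 nt. Of its 7 positions, 6 lay between 0 and 325 nt inside the annotated start and held 88.6% of its TPM, and the last lay 75293 nt inside. No library had more than 2 of them. The position at 309 nt was listed in the temporal cortex library of 20-yr-old females (260.6 TPM) and, among 4-yr-old females, in PFC (80.9 TPM). The position at 209 nt was listed in the CB library of 4-yr-old females alone, with 229 TPM, and that at 325 nt in the CB library of 1-yr-old females, with 34.1 TPM. The position far inside the gene was found among 1-yr-old females in PFC (69.8 TPM) and in the temporal cortex library of 1-yr-old males (10.6 TPM). The CA1 library of 4-yr-old females summed to 12.1 TPM over the positions at 0 and 297 nt, and the PC library of 1-yr-old males had 6.66 TPM at 171 nt.

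These 8 CA8 values stood for an estimated 25 to 1259 tags, and the remaining 56 libraries listed none. PCC, OC and DG had no library with CA8. Because the table lists only TCs above a minimum, a library without CA8 gives no upper limit that a count of 0 would allow, and levels under its smallest listed value are not seen. Of the 8 libraries, 1 was of 10 or 20 yr and 7 were of 1 or 4 yr, and 2 were from males and 6 from females. Over all tested genes, the median log2 difference was -0.30 for older minus younger and 0.19 for males minus females. The share of all genes listed more often in younger or in female libraries was not counted. These counts are thus not shown to be a trait of CA8. The single library of 20 yr had the highest CA8 value of all.

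**Figure D4:**
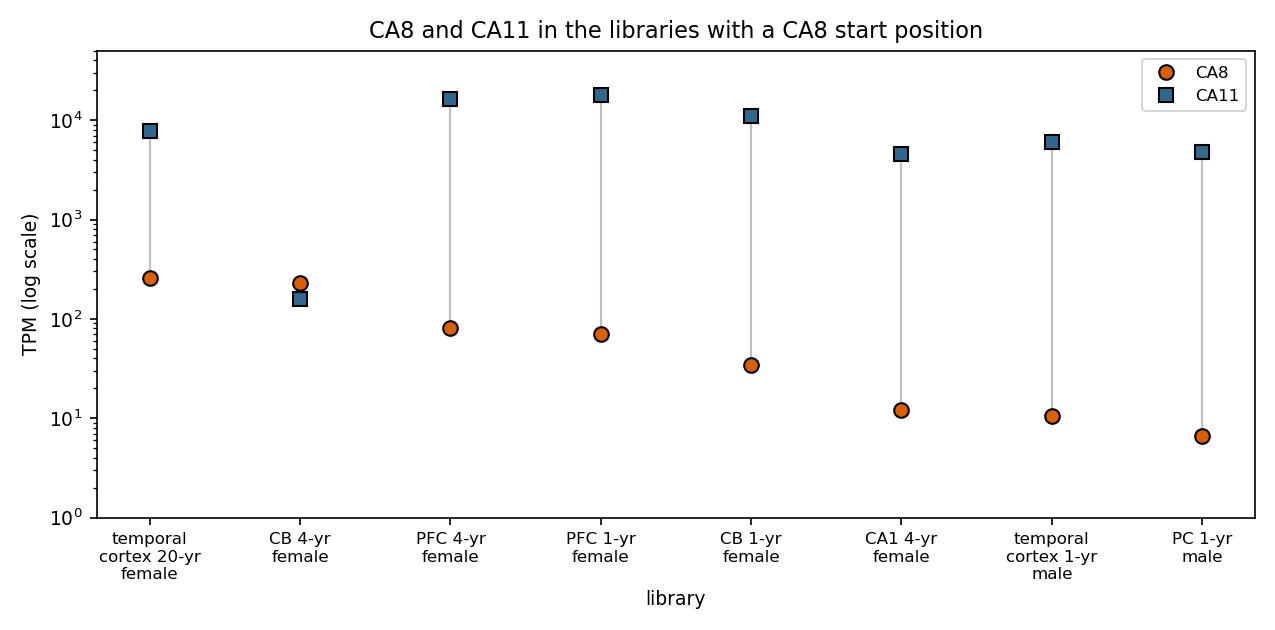
CA8 (circles) and CA11 (squares) TPM on a log scale in the 8 libraries with a CA8 start position, ordered by CA8. CA8 lies between 6.66 and 260.6 TPM, and exceeds CA11 in the CB library of 4-yr-old females (229 against 158 TPM).

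CA8 just met the filter for testing, 1 TPM or more in 8 libraries, and no comparison called it. In CB it averaged 32.9 ± 80.1 TPM (SD, listed in 2 of 8 libraries) and in the other regions 7.87 ± 37.2 TPM (SD, listed in 6 of 56). The limma difference was 1.07 ± 0.70 on the log2 scale (SE, 95% interval -0.33 to 2.47, adjusted p = 0.528). It was 0.31 without the 4-yr-old females, whose CB library had 229 TPM, and 0.62 without the 1-yr-old females. Hippocampus minus neocortex was -0.44 ± 0.55 (SE, adjusted p = 0.686 by limma), and CA1 minus DG was 0.46 ± 0.92 (SE, adjusted p = 0.752 by limma). Older minus younger ages gave -0.86 ± 0.49 (SE, 95% interval -1.98 to 0.25, adjusted p = 0.633 by limma). Males minus females gave -0.96 ± 0.49 (SE, 95% interval -2.08 to 0.15, adjusted p = 0.953 by limma), from 0.54 ± 2.18 TPM in males and 21.5 ± 61.8 TPM in females (SD, n = 32 each). Without the 4-yr-old females, CA1 minus DG of CA8 was 0, older minus younger was -0.44 and males minus females was -0.53. Older minus younger was -0.54 without the 10-yr-old females. Within regions, the age difference of CA8 was -3.24 ± 1.51 in CB (SE, adjusted p = 0.778 by limma) and -3.13 ± 1.33 in PFC (SE, adjusted p = 0.676 by limma). In both, CA8 was listed in 0 of 4 older and 2 of 4 younger libraries. The median age difference over all tested genes was -0.0068 in CB and -0.66 in PFC. In temporal cortex the age difference of CA8 was 1.12 ± 2.21 (SE, adjusted p = 0.940 by limma), the opposite direction.

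The CB label was checked against markers of its neurons, among them the Purkinje cells known for CA8. Of the tested markers, 3 of 6 of Purkinje cells and 3 of 4 of granule cells were called higher in CB, and none lower. Over all genes, 0.884% were called higher and 1.34% lower. Summed Purkinje cell markers, 8 of 12 with a TC, came to 771 to 2417 TPM in CB against 0 to 625 TPM elsewhere. The median of this sum in CB was 1698 TPM, and that of CALB1 alone was 1338 TPM. CALB1, a calcium buffer of Purkinje cells, averaged 1263 ± 492 TPM in CB (SD, n = 8) against 92.5 ± 152 TPM elsewhere (SD, n = 56) and was called higher (log2 difference 6.14 ± 0.85 SE, adjusted p = 7.81e-07 by limma). The Purkinje markers PCP2, PCP4, LHX5 and ARHGEF33 had no listed TC. Other markers had means in CB below those elsewhere, among them PVALB (2.93 against 4.27 TPM), ITPR1 (3.53 against 4.21 TPM) and RORA (0 against 0.38 TPM) of Purkinje cells and ZIC2 (0.25 against 14.1 TPM) of granule cells. Granule cell markers, 8 of 10 with a TC, summed to 1104 to 2260 TPM in CB against 0 to 771 TPM elsewhere. Summed markers of neocortical and hippocampal glutamatergic neurons came to 0 to 195 TPM in CB against 44.2 to 4276 TPM elsewhere. The part of these cell types in the CA11 and CA8 levels was not tested.

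Of 17 genes of the inositol trisphosphate receptor and Purkinje calcium release pathway, 15 had a TC and 6 were tested. In CB, 1 of the 6 was called higher and none lower, with a median difference of -0.42, close to the -0.43 over all genes (0.884% of all genes were called higher). The called gene was HOMER3, a scaffold that links glutamate receptors to ITPR1, with 211 ± 154 TPM in CB (SD, n = 8) against 12.5 ± 42.7 TPM elsewhere (SD, n = 56). Its log2 difference was 5.17 ± 0.82 (SE, adjusted p = 1.88e-05 by limma). PLCB1, the phospholipase that makes inositol trisphosphate, GNA11, a G protein alpha subunit upstream of it, and HOMER1 were not called, with differences of -1.61, -0.84 and -0.63. ITPR1, the binding partner of CA8, was listed in 1 of 8 CB and 9 of 56 other libraries, and its highest CB value was 28.2 TPM. CA1 against DG called 2 of the 6 higher (PLCB1, 5.19, and HOMER1, 2.79), beside 18.5% of all genes higher.

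Among 23 neurexins and neurexin ligands, the group of CA10, 19 had a TC and 14 were tested. In CB, 2 were called higher and 1 lower (1.34% of all genes were called lower), with a median difference of -0.09. CBLN1 and CBLN3, secreted proteins of granule cells that are also among the granule cell markers, averaged 750 ± 408 and 614 ± 268 TPM in CB (SD, n = 8) against 0.976 ± 5.22 and 0.0302 ± 0.226 TPM elsewhere (SD, n = 56). C1QL2, a secreted ligand of the same C1q family, was lower, with 0.809 ± 2.29 TPM in CB (SD, n = 8) against 79.5 ± 162 TPM elsewhere (SD, n = 56, log2 difference -3.70 ± 0.98 SE, adjusted p = 0.0264 by limma). IGSF21, an adhesion protein that binds NRXN2, had a difference of 2.98 ± 0.99 (SE) that missed the threshold (adjusted p = 0.106 by limma). Of 15 transporters of bicarbonate, protons and lactate, 12 had a TC, 6 were tested and none was called in CB, with a median difference of -0.90. SLC16A3, a lactate and proton carrier, had 1.53 ± 0.78, and the bicarbonate carriers SLC4A10 and SLC4A8 had -1.10 and -1.25. In all 3 lists, no tested gene was called between ages or sexes.

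Within the carbonic anhydrase family of 15 genes, CA11 held 98.6% of the TPM. A TC was listed for 9 of the 15, and none for gene CA1, CA5A, CA6, CA7, CA9 and CA13. CA4, an enzyme anchored to the surface of endothelial cells and other cells, was next with 58.9 ± 179 TPM (SD, n = 64) in 32 libraries, then CA10 with 14.5 ± 31.6 TPM in 20 libraries. CA2, the cytosolic enzyme of oligodendrocytes, was listed in 7 libraries and CA14, a membrane enzyme, in 6. CA12, a membrane enzyme, was listed in 2 libraries, and CA3 of the cytosol and CA5B of mitochondria in 1 each.

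Of the family, 4 members were tested, and CA4 was the one called in CB, where 0.884% of all genes were called higher and 1.34% lower. CA4 averaged 289 ± 422 TPM in CB (SD, listed in 7 of 8 libraries, median 89.8) against 26.0 ± 74.0 TPM elsewhere (SD, listed in 25 of 56). Its log2 difference was 4.36 ± 0.95 (SE, adjusted p = 0.00317 by limma). Of CA4 TPM, 20.5% lay within 500 nt of the annotated start, and its main position, 7219 nt inside the gene, was listed in 2 libraries. CA10 had 20.4 ± 42.7 TPM in CB (SD, n = 8) against 13.7 ± 30.2 TPM elsewhere (SD, n = 56) and was not called (0.47 ± 0.87 SE, adjusted p = 0.819 by limma). The inactive CA10 was spread over 33 positions of which 1.96% of TPM lay within 500 nt of the annotated start, against 3.36% for CA11 and 88.6% for CA8. The shares of CA10 and CA11 are not alike in kind. The main position of CA11 lay 512 nt upstream, just past that limit, and that of CA10 lay 242532 nt inside the gene, in 4 libraries. None of the 4 was called between hippocampus and neocortex, CA1 and DG, ages or sexes, with adjusted p of at least 0.0593 by limma. Over all genes, 8.19%, 19.4%, 0% and 0% were called in these comparisons.

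**Figure D5:**
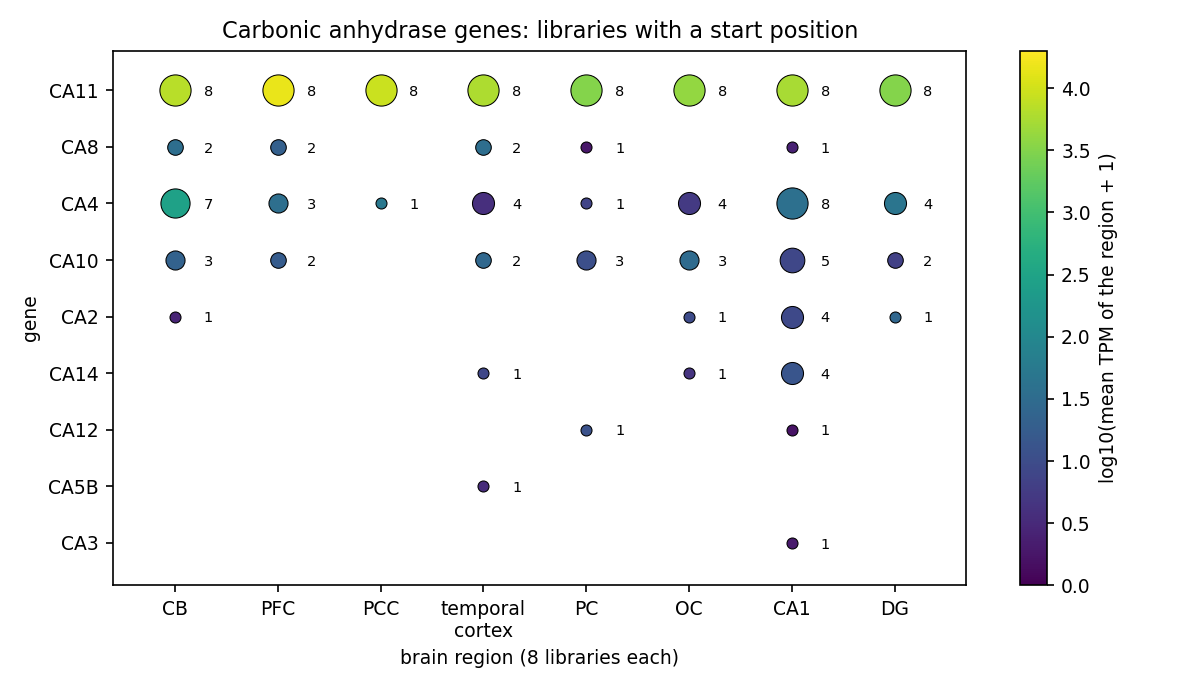
Carbonic anhydrase genes with a start position, by region, with CB at the left. Dot size and the number beside it give the libraries of 8 with a TC, and colour gives log10 of the regional mean TPM + 1. CA11 is listed in all 8 libraries of each region, CA8 in 0 to 2, and CA4 in 7 of 8 CB libraries.

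Among the 5 genes most like CA11 over 64 libraries, by the Pearson correlation of log2(TPM + 1) among 4781 other tested genes with a symbol, were EEF1A2 (0.63), MAP1B (0.55), CYB5A (0.55) and NUDC (0.54). They encode a neuronal elongation factor, a microtubule-associated protein, a cytochrome b5 and a dynein-linked chaperone. These correlations are descriptions, and the libraries share their depth and the 5 low CA11 values as points. Ranked by Spearman correlation, the first 5 genes shared none with the first 5 by Pearson correlation, and the first was ASPHD1 (0.73). The genes most like CA8 were GLMP (0.61), TMEM138 (0.60), SLC35C2 (0.55), OPLAH (0.53) and ORC6 (0.52), listed in 8 to 13 libraries and together with CA8 in 4 or 5, so these values rest on few libraries.

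The one gene with a TC within 5000 nt of CA11 was DBP, a circadian transcription factor on the same strand at chr19:54934558-54942502, which begins 652 nt beyond the end of CA11. DBP had 35 TCs, 23 of them within 5000 nt and 0 inside the CA11 span, and averaged 35.0 ± 80.4 TPM (SD, n = 64) in 30 libraries. No gene had a TC within 5000 nt of CA8 other than CA8 itself.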

How the data were processed

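CAGE-seq libraries of 8 regions, 4 ages and 2 sexes were analysed. The authors treated RNA with a nuclease that degrades uncapped RNA, filtered reads (FASTX-Toolkit 0.0.13), aligned them to MMUL 1.0 with TopHat2 (2 mismatches), kept unique reads, and joined 5′ ends under 20 nt apart into TCs, per library, from positions of at least 0.5 TPM. The deposited values are RPM (called TPM), and tag numbers were estimated from their spacing. All 64 columns had a sample.

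TPM was summed per gene. Genes reaching 1 TPM in 8 libraries or more entered two-sided tests of log2(TPM + 1) by limma 3.58.1 (R 4.3.3, Benjamini-Hochberg adjusted over all tested genes), with region and animal group as terms, or, for ages and sexes, on animal-group means. The fits were tested on simulated data. Paired deviations of libraries of the same animal group correlated by 0.0113 on average (224 pairs, lowest -0.0637) and of different groups by -0.0016; the pairing comes from the methods of the study. Tables were handled in pandas 2.3.3 and NumPy 2.4.6 under Python 3.11.15, exact tests in SciPy 1.17.1, and plots in Matplotlib 3.10.9.

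Members and gene lists were chosen with earlier results of these data known. Named are the members, family genes with a TC, up to 4 tested genes per list with the smallest p in CB, the 5 genes most correlated with each member and genes within 5000 nt. Tested alternatives are in the closing section. Values of a few genes of the lists and of the similarity ranking are not reported here.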

Additional observations from a re-analysis of the deposited data

Results flagged for a closer look

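Among 13 groups of 8 libraries (a gene in a region, with values that were not all 0), 5 had a highest or lowest library whose gap to the next was past Dixon's critical share of the group's range. Chance passes that limit in about 1 of 20 groups, which applies to the 8 groups of CA11, of which 1 passed. The other 4 were CA8 groups with 6 or 7 of 8 libraries at 0, to which this rate does not apply. CA11 in the DG library of 1-yr-old males was 265.0 TPM, with the next value at 2680 TPM. CA8 was 260.6 TPM in the temporal cortex library of 20-yr-old females, with the next at 10.6 TPM, and 229 TPM in the CB library of 4-yr-old females, with the next at 34.1 TPM. CA8 was 6.66 TPM in the PC library of 1-yr-old males and 12.1 TPM in the CA1 library of 4-yr-old females, with 0 in the other libraries of those regions, so that a single listed value passed the limit by construction.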

How the results depend on the processing

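The 12 tested differences (CA11 and CA8 over CB, hippocampus, CA1, older ages, 20 yr and sex) were recomputed 210 times, and none passed the threshold (adjusted p between 0.213 and 1 by limma). Of these, 199 kept their sign, 10 changed it and 1 was 0 (CA8 in CA1 minus DG, without 4-yr-old females). Part of this agreement was fixed in advance. A change of block or filter cannot move an estimate, nor can leaving out animals of 4 or 10 yr move 20 yr against 1 yr. For CA11 in CB, the log2 difference was 0.34 with TCs within 500 nt of the start, 0.57 with the highest TC alone and 0.61 without the 5 low libraries, chosen after seeing the data. The highest TC is the position 512 nt upstream, listed in 48 libraries and counted as 0 elsewhere. With it alone, CA11 gave -2.58 for older minus younger (-0.37 in the main fit) and 2.54 for males minus females (0.67). Hippocampus minus neocortex was then -2.51 (-0.41), CA1 minus DG 0.29 (1.06) and 20 yr minus 1 yr -1.23 (-0.29). With TCs within 500 nt, CA1 minus DG was -1.29 and older minus younger was 0.46; these TCs hold 3.36% of CA11 TPM. Under quantile normalization CA8 in CA1 minus DG was -0.067, and the median of all genes there was 0.12. With no replicate block, in place of pairing by animal group, the SE of CA11 in CB was 0.65 against 0.64, and no call changed. The estimate of -0.33 cannot change there, because the design is balanced. Leaving out each animal group gave -0.59 to 0.33 for CA11 in CB, -0.79 to 0.058 for older ages and -1.14 to 0.56 for 20 yr against 1 yr. For CA11 it gave 0.26 to 1.10 for males minus females, and for CA8 0.31 to 1.39 in CB, -0.59 to -0.28 for hippocampus, 0 to 0.53 for CA1 minus DG, -1.29 to -0.44 for older ages, -0.85 to -0.37 for 20 yr against 1 yr and -1.28 to -0.53 for males minus females. Of 129 recomputed age differences within regions, 8 changed sign, 1 was 0 and none passed: without each animal group, CA11 ranged from -3.84 to 0.18 in temporal cortex, -0.066 to 0.37 in PC and -0.88 to 1.57 in CB, and CA8 from -1.06 to 2.41 in temporal cortex. Joining positions left 42 for CA11. Within 100 nt of the start, CA11 kept 0.322% and CA8 0.868% of TPM. By Spearman, 0 of 5 similar genes were shared for CA11 and 1 for CA8. CA8 was below the filter with TCs within 500 nt or the highest TC alone, so no value is given there. A count test on tags was not run, since the deposited values are not counts. TCs below an estimated 2 to 7 tags are not listed, so lower CA8 levels are not seen.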

Other observations

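CA2, CA4, CA10 and CA14 were each listed in more libraries of CA1 than of any other region. CA1 libraries held a median of 11309 TCs, the highest median of the 8 regions. They listed a median of 5473.5 genes, against medians of 1253.5 (PCC) to 3104.5 (temporal cortex) in the other regions. The share of all genes listed most often in CA1 was not counted, so this is not shown to be a trait of the family. Of the libraries with CA2, 4 of 7 were from CA1, with a regional mean of 7.91 ± 10.9 TPM (SD, n = 8), and of those with CA14, 4 of 6 were from CA1, with 12.4 ± 24.7 TPM (SD, n = 8). CA4 was listed in 8 of 8 CA1 libraries at 36.0 ± 29.9 TPM (SD, n = 8) and in 4 of 8 DG libraries at 46.9 ± 109 TPM (SD, n = 8). The CA2 value of the DG library of 1-yr-old males, 203 TPM, was the highest of that gene.

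CA11 was among the 20 most abundant genes in 49 of 64 libraries, and its median percentile among the genes listed in a library was between 99.0 in DG and 99.9 in PFC. In the 5 low libraries the percentile was 12.8 to 80.5.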
